A study of Anas platyrhynchos with 2 samples.

Results

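The genes of chromosome Z were described in the duck (Anas platyrhynchos, breed Fujian Longyan Shan-ma), by their RNA level and their structure. A gene was a member when the first exon listed for it lay on Z, which gave 266 genes on the plus and 307 on the minus strand, together 5.03% of the 11383 genes of the count table. The chromosome label was the only criterion, so level and structure were not used to choose them. The study sequenced RNA from adult ducks beside a genome assembly, in 2 libraries with 1 library per label and no replicates. The label of library A lists 5 organs (pancreas, liver, blood, intestine, stomach), and that of library B lists 9 others (ovary, skin, eye, muscle, kidney, brain, spleen, lung, heart). The series text speaks of an adult female and an adult male whose tissue RNA was combined, with testis in the male, and the share of each bird in each library is not given. Male and female RNA therefore cannot be told apart here, and values are given for the libraries and not for sexes or organs.

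As background, in birds the female carries a Z and a W chromosome and the male carries a pair of Z chromosomes. The Z and W descend from the same ancestral autosome, and the W has kept few of its genes. A gene still present on both is called a gametolog pair. Birds are known for incomplete compensation of the Z dose, so that many Z genes have less RNA in females than in males. Z also carries DMRT1, the gene whose dose is required for testis formation in the chicken. The count files give IDs and no gene names, and 0 of the Z IDs matched a duck reference table of 26024 genes. No role can thus be attached to a member, the labelled organs could not be checked against markers, and no sequence is shown because none of the files used here holds one.

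Level was expressed as RPKM, that is counted reads per kilobase of exon after scaling to a common library total, averaged over both libraries unless a library is named. With 1 library per label no test across replicates exists, and a comparison with other chromosomes is given as a description over genes, which are not replicates. The libraries held 20047449 and 41792653 counted reads. The median count of a Z gene was 568 reads in A and 1178 in B. Because there are no replicates, every interval and floor below covers counting error only. The reads also carry no molecular identifiers. Mates of a pair were counted separately, so intervals of shares and floors, which are taken from reads, are too narrow.

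Z genes held a smaller share of the reads than of the genes or of the exon sequence. They made up 5.03% of the genes and 5.52% of the exon sequence in the table. Their share was 3.17% of the reads of library A (635409 reads, Clopper-Pearson 95% interval 3.16 to 3.18) and 3.14% of those of library B (1310225 reads, 3.13 to 3.14). Without the 10 most abundant genes of the table the share was 3.80% in A and 3.74% in B.

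The typical Z gene stood at a lower level than the typical gene of any autosome with at least 100 genes in the table. The median over Z was 7.44 RPKM, with quartiles at 3.10 and 14.6 RPKM. Its value was 7.33 RPKM in library A and 7.44 RPKM in library B. The 10552 autosomal genes had a median of 9.66 RPKM, so that Z stood at 0.770 times the autosomal median. All 29 such autosomes had a higher median than Z, from 8.15 RPKM on chromosome 18 to 16.04 RPKM on chromosome 23. The 8 autosomes over 30 Mb ran from 8.33 RPKM on chromosome 7 to 10.1 RPKM on chromosome 5. Against their 5645 genes together the ratio was 0.830. Among all 39 autosomes 9 had a lower median than Z, and each of these had fewer than 100 genes in the table.

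**Figure D1:**
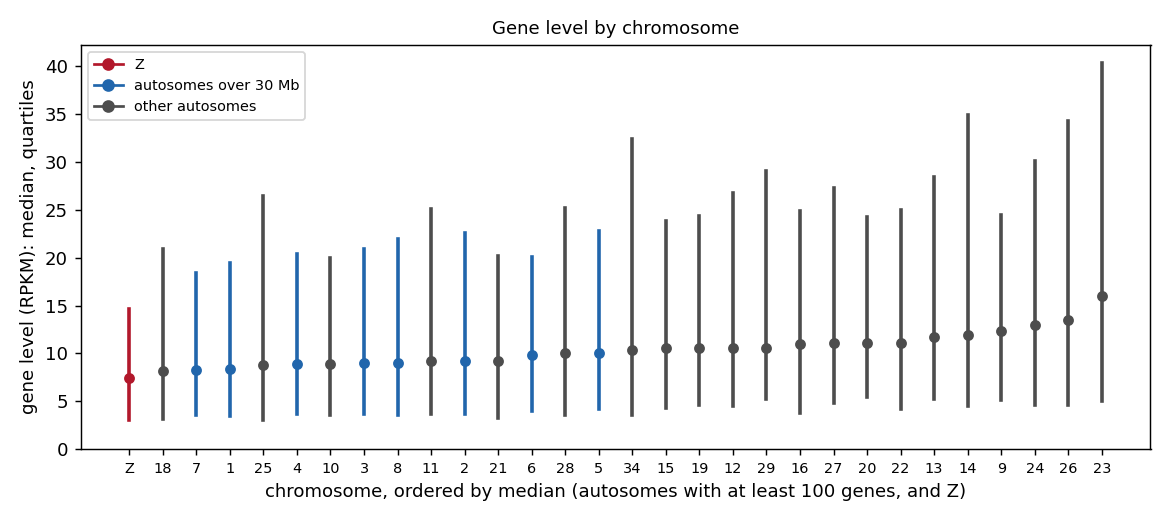
Median gene level of chromosome Z and of the 29 autosomes with at least 100 genes, in RPKM averaged over both libraries; points are medians over genes and lines run between the quartiles. Z has the lowest median (7.44 RPKM) and the lowest upper quartile (14.6 RPKM) in this set.

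The difference was small at the lower end of the distribution and larger in its middle and upper part. At the 10th percentile Z genes stood at 1.45 RPKM and autosomal genes at 1.497 RPKM, a ratio of 0.972. The ratio was 0.822 at the 25th percentile and 0.770 at the median. At the 75th percentile, with 14.6 RPKM against 23.2 RPKM, it was 0.630. It was 0.752 at the 90th percentile and 0.754 at the 95th. Both libraries gave nearly the same profile, with ratios at the 75th percentile of 0.626 in A and 0.629 in B. Set against the autosomes over 30 Mb the ratio was 0.959 at the 10th percentile, 0.694 at the 75th and 0.812 at the 90th. The upper quartile of Z lay below that of all 29 autosomes with at least 100 genes, whose lowest was 18.3 RPKM on chromosome 7.

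Z genes were accordingly more frequent than autosomal genes from 1 to under 10 RPKM. From 1 to under 5 RPKM lay 31.4% of Z genes and 25.2% of autosomal genes, and from 5 to under 10 RPKM 23.4% and 19.7%. The shares from 10 to under 20 RPKM were close, 19.2% of Z genes and 20.1% of autosomal genes. The class from 20 to under 50 RPKM held 10.6% of Z genes, against 17.1% of autosomal genes. The 75th percentile of level was 4.71 times the 25th on Z. On 28 of the 29 autosomes with at least 100 genes this spread was wider, up to 8.97 times on chromosome 34, and it was narrower only on chromosome 20, at 4.47 times.

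**Figure D2:**
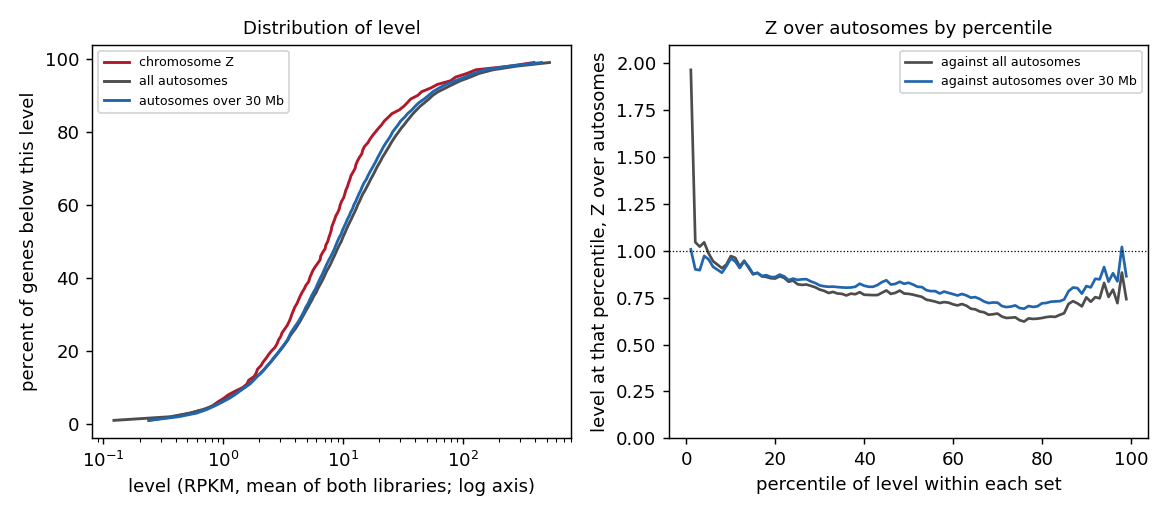
Left, the percent of genes below each level in RPKM (log axis) for Z, all autosomes and autosomes over 30 Mb; right, the level at each percentile on Z divided by that on the autosomes. The curve against all autosomes falls from 0.972 at the 10th percentile to 0.630 at the 75th, and the first percentiles rest on few genes.

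The upper tail of Z was thinner than that of the autosomes. At least 50 RPKM was reached by 48 Z genes (8.38%), against 11.5% of autosomal genes and 10.4% of genes on autosomes over 30 Mb. At least 100 RPKM was reached by 24 Z genes (4.19%), against 5.80% of autosomal genes. The 48 genes held 38.2% of the Z reads in A and 37.9% in B. They were compact, with a median of 7 exons, 1402 bp of exon and a span of 8654 bp from first to last exon. Autosomal genes of that level were built alike, with medians of 7 exons, 1773 bp and 7826 bp. Just below the limit of 50 RPKM stood a gene at 48.1 RPKM and just above it one at 50.1 RPKM.

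No Z gene approached the most abundant autosomal genes. The highest Z gene was Apl_ZG0007540, at 75934528 to 75944768 on the minus strand of the study's assembly, with 9 exons and 1642 bp of exon. Its counts were 35073 (library A) and 71429 (library B), which is 1069 and 1037 RPKM. Its share of the Z reads was 5.52% in A and 5.45% in B. The highest autosomal gene stood at 38835 RPKM, averaged over both libraries. A highest value depends on the number of genes, and the autosomes together have many more than Z. At the 99th percentile Z stood at 392 RPKM and the autosomes at 528 RPKM, a ratio of 0.742. The second Z gene, Apl_ZG0001860, at 14803468 to 14806209 on the minus strand, had 4 exons that sum to 468 bp. It had 6727 and 13183 reads, or 719 RPKM in library A and 672 RPKM in library B.

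The next 8 genes are given by position, since the files do not name them. A gene with 4 exons at 78454296 to 78456209 had 665 RPKM in library A and 635 RPKM in library B. A gene with 7 exons at 2138951 to 2142213 had 625 and 614 RPKM. The gene with 9 exons at 10909101 to 10920339 had 615 and 622 RPKM, and it recurs below as a gene with a counterpart on W. A gene with 6 exons at 36867629 to 36873504 had 446 and 430 RPKM. Another gene with a counterpart on W, with 12 exons at 3440013 to 3447580, had 387 and 361 RPKM. A pair of genes with 4 exons each followed, at 10844633 to 10845864 with 373 and 367 RPKM and at 10864900 to 10866157 with 336 and 328 RPKM. The last of the 10 had 3 exons, at 80629359 to 80631701, and stood at 325 and 316 RPKM. In each of the 10 genes the libraries differed by less than 10% of the level.

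The lower tail had about the same weight on Z as elsewhere, but its makeup differed from that over all autosomes. Under 1 RPKM stood 40 Z genes (6.98%), against 6.37% of autosomal genes and 6.16% of those on autosomes over 30 Mb. The Z genes in this tail had a median of 9 exons and a span of 22583 bp. Autosomal genes under 1 RPKM had medians of 6 exons and 8248 bp. Genes of at most 4 exons made up 22.5% of the Z tail and 40.5% of the autosomal tail. The makeup of this tail on the autosomes over 30 Mb alone was not examined. The nearest genes on either side of the bound stood at 0.993 and 1.003 RPKM. In both libraries 34 genes lay under 1 RPKM, and in at least 1 library 46 did, so that membership close to the bound depends on the library.

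A single Z gene had no read in either library. It is a gene with 1 exon of 482 bp at 51150551 to 51151032 on the minus strand. A count of 0 allows up to 3 reads, or 0.1502 CPM (reads after scaling to a common total, without gene length) in library A and 0.0715 in library B, so its RNA was not detectable at this depth. Library A had no read for 3 Z genes in all and library B for 1. Of the autosomal genes 0.275% had no read in either library, against 0.175% of Z genes.

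Z genes were long in the genome and had ordinary numbers of exons. Their median span was 25698 bp, with quartiles of 10241 and 67375 bp, against a median of 16498 bp on the autosomes, a ratio of 1.56. Against the autosomes over 30 Mb, with a median span of 22786 bp, the ratio was 1.13. Chromosome 7 alone among the 39 autosomes exceeded Z, with 27010 bp. The median number of exons was 10 on Z, 9 on all autosomes and 10 on those over 30 Mb. Exon sequence per gene had a median of 3815 bp on Z, higher than on any of the 39 autosomes, whose highest median was 3791 bp on chromosome 10. Introns and other sequence between the exons summed to a median of 21668 bp on Z and 18538 bp on the autosomes over 30 Mb.

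The 3 longest Z genes were all of low level. The longest spanned 692792 bp, from 7595531 to 8288322, with 13 exons, and had 2.95 RPKM in library A and 3.25 RPKM in library B. The second, with 15 exons at 53507277 to 53972509, had 3.05 and 3.02 RPKM. The last of these, with 32 exons at 31557710 to 31956594, had 2.29 and 2.16 RPKM. All lay at or below the lower quartile of Z.

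The gap between Z and autosomal level widened with gene span. Genes were split at the autosomal quartiles of span, and each Z class was set against autosomal genes of the same class. In the shortest class, up to 6799 bp on Z, 89 Z genes had a median of 11.4 RPKM against 11.9 RPKM, a ratio of 0.960. The ratio was 0.863 over the 122 genes of the second class and 0.777 over the 148 of the third. In the longest class, which held 37.3% of Z genes, 214 Z genes had a median of 5.29 RPKM against 7.29 RPKM, a ratio of 0.726. Against autosomes over 30 Mb the same 4 ratios were 0.963, 0.865, 0.839 and 0.732. Over Z genes the rank correlation of span with level was -0.203, and over genes of the autosomes over 30 Mb it was -0.147 (n = 5645). Exon length enters both quantities, since level is per kilobase of exon.

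By number of exons the pattern was different. The 103 Z genes of 2 to 4 exons stood at a median of 7.64 RPKM. Autosomal genes of this class stood at 7.11 RPKM, which makes the ratio 1.07. With 5 to 8 exons the medians were 7.42 RPKM over 140 Z genes and 12.2 RPKM, and the ratio of 0.610 was the lowest of the 5 classes. Genes of 9 to 16 exons stood at a ratio of 0.732 and those of over 16 exons at 0.832. Against autosomes over 30 Mb these 4 ratios were 1.18, 0.669, 0.792 and 0.867. Autosomal level thus peaked at 5 to 8 exons, while the medians on Z stayed between 7.06 and 7.87 RPKM in all classes beyond a single exon. The 6 single-exon genes of Z, at a median of 2.32 RPKM, are too few to describe. By exon length the ratios to all autosomes were alike, between 0.725 and 0.776 in the 4 classes set by the autosomal quartiles. Against autosomes over 30 Mb they were 0.706, 0.759, 0.807 and 0.791, from the shortest class to the longest.

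**Figure D3:**
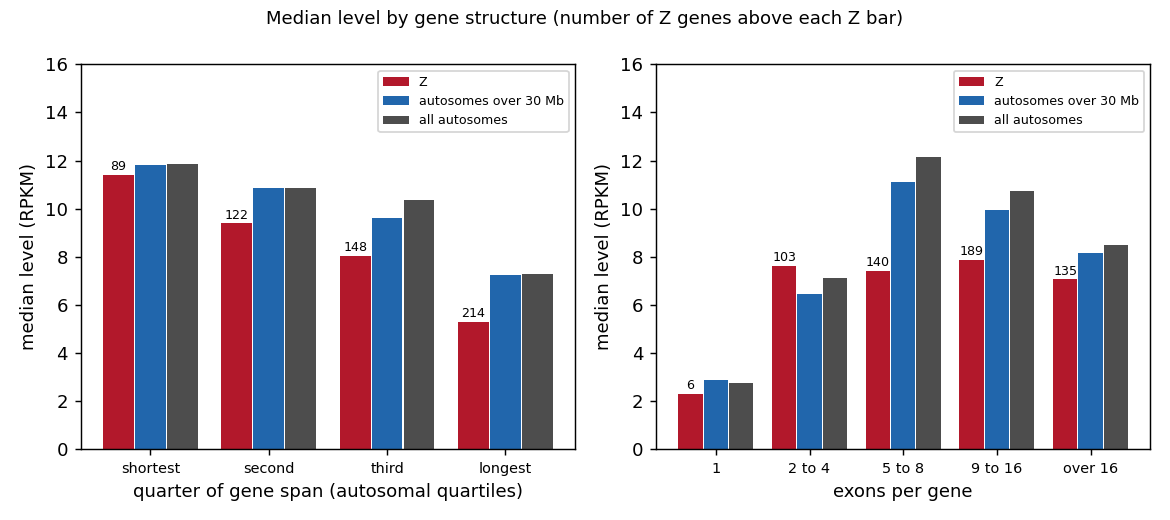
Median gene level in RPKM, averaged over both libraries, for Z, autosomes over 30 Mb and all autosomes, by class of gene span (left) and by number of exons (right); numbers give the Z genes in each class. Z and autosomes are close in the shortest span class (11.4 and 11.9 RPKM) and Z is higher at 2 to 4 exons.

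Z was sparsely filled with the genes of the table. It had 6.68 genes per Mb over 85.8 Mb up to the last gene, fewer than 28 of the 29 autosomes with at least 100 genes. Neighbouring genes were separated by a median of 21811 bp, against 11744 bp on all autosomes and 18446 bp on those over 30 Mb. Gaps of at least 100 kb made up 22.7% of the 572 gaps on Z and 18.6% of those on the autosomes over 30 Mb. Of 846 ID numbers on Z 67.7% are present, close to the 67.4% of the autosomes over 30 Mb. On all autosomes 62.1% are present. Genes under other numbers may thus lie in the gaps and were not analysed here. The shares of genes given here, those of the tails included, leave them out.

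Gaps of at least 1 Mb numbered 6 and covered 10.6 Mb in all. The widest ran for 2.18 Mb, from 5418524 to 7595530, and 3 ID numbers are missing from the table across it. Across the gap of 1.86 Mb from 31956595 to 33811967 the IDs ran on without a break. The gap of 1.197 Mb from 72373561 to 73570347 stands apart with 32 missing ID numbers. Genes on the edges of the 6 gaps ran from 1.71 to 35.6 RPKM.

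Orientation along Z was close to balanced, with 266 genes on the plus strand and 307 on the minus strand. Divergent neighbours made up 25.3% of the 572 adjacent pairs and convergent neighbours 25.2%. Convergent pairs under 1 kb apart were few, 8 in all or 1.399% of pairs, against 3.98% on the autosomes and 3.03% on those over 30 Mb. Divergent pairs under 1 kb apart numbered 24, or 4.196%, against 3.77% on the autosomes.

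Over long distances the median level of Z genes varied by a little over 2 times. Taken by steps of 5 Mb, it ran from 4.42 RPKM at 55 to 60 Mb, over 21 genes, to 9.90 RPKM at 5 to 10 Mb, over 23 genes. The stretch from 30 to 35 Mb held 22 genes with a median of 4.69 RPKM and none at 50 RPKM or more. These 22 genes held 1.91% of the Z reads of library A, and the 71 genes between 10 and 15 Mb, the step with the most genes, held 13.4%. The median level of these 71 genes was 7.30 RPKM, near the Z median of 7.44 RPKM. The last step, beyond 85 Mb, had 15 genes with a median of 4.43 RPKM and 5 of them under 1 RPKM.

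Over shorter distances, by bounds taken from the autosomes, Z had quiet stretches and no abundant ones. The median level was taken over every run of 10 consecutive genes and set against the same runs on the autosomes. Runs under the 5th percentile of autosomal runs, 3.80 RPKM, were called quiet, and runs over the 95th, 24.6 RPKM, abundant. On Z 41 of 564 runs (7.27%) were quiet and 0 were abundant. Runs on Z were lower as a whole, with a median of 7.43 RPKM against 10.1 RPKM for autosomal runs. Of the Z runs 76.8% lay under the median autosomal run. Whether the quiet stretches go beyond this lower level of the whole chromosome was not tested. Of 28 autosomes with at least 100 runs, 2 had a larger share of quiet runs, and the highest was 8.43% on chromosome 18. Of the same 28 autosomes 1 had no abundant run, and the highest share was 34.3%. The quiet runs merged into 8 stretches with 117 genes, 20.4% of the genes on Z. On the autosomes over 30 Mb, quiet stretches numbered from 2 on chromosomes 5 and 6 to 18 on chromosome 1. Quiet runs there made up from 1.10% on chromosome 6 to 7.45% on chromosome 8. The share of autosomal genes inside quiet stretches was not computed, so the 20.4% does not set Z apart. The absence of abundant stretches depended on the rule, since runs of 5 genes gave 4 of them and bounds taken from the autosomes over 30 Mb gave 1.

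The quiet stretch with the most genes lay near the end of the chromosome, from 84446596 to 85537970, with 20 genes. Its median was 2.87 RPKM in library A and 2.62 RPKM in library B, and 6 of its genes were under 1 RPKM. The lowest was a gene with 5 exons at 84938607 to 84941197, with 0 reads in A and 1 in B. Even so, the stretch contained a gene with 30 exons at 84736352 to 84797155 that stood at 40.6 RPKM in library A and 41.8 RPKM in library B. The lowest run of 10 genes on all of Z lay in this stretch, at a median of 0.520 RPKM.

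The other quiet stretches differed in size and density. The most compact, from 10540381 to 10866157, packed 18 genes into 0.326 Mb, with a median span of 3458 bp and a median level of 3.39 RPKM. It also held the pair of genes with 4 exons that stood above 320 RPKM. Its lowest gene, with 11 exons at 10711826 to 10721825, had 0.618 RPKM in library A and 0.980 RPKM in library B. The widest stretch, from 56828567 to 62147461, spread 18 genes over 5.32 Mb, and 14 of them were below the Z median. Its lowest gene, at 61201279 to 61224595, had 1.23 and 1.45 RPKM. The median of this widest stretch, 4.49 RPKM over both libraries, was above the quiet bound of 3.80 RPKM. A stretch merges overlapping quiet runs and need not be quiet as a whole.

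A stretch of similar width, from 3448593 to 8601059, had 11 genes over 5.15 Mb and contains the widest gap and the longest gene of Z. Its lowest gene, with 10 exons at 3570361 to 3857321, had 0.833 RPKM in library A and 0.576 RPKM in library B. The stretch from 63284314 to 65350547 had 10 genes with a median of 2.51 RPKM, and its lowest gene, at 65271871 to 65350547, had 0.813 and 0.733 RPKM. The remaining 3 lay at 18514427 to 19547657, 25995335 to 27456399 and 40623168 to 43440777, with medians of 3.82, 3.84 and 3.66 RPKM. Their lowest genes had 1.02, 0.606 and 1.43 RPKM, averaged over both libraries. The medians of 3.82 and 3.84 RPKM also lay above the bound of 3.80 RPKM. The stretch at 25995335 to 27456399 held a gene at 86.6 RPKM, and that at 63284314 to 65350547 held one at 85.6 RPKM. Each of the 8 stretches overlapped a quiet stretch found from library A alone and from library B alone. Both libraries enter the mean that defined the stretches, so this overlap is no independent check.

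The stretches, which are defined by level, held 20.4% of all Z genes. They held 13 of the 40 genes under 1 RPKM (32.5%) and 4 of the 48 genes at 50 RPKM or more (8.33%). Genes inside and outside had the same median number of exons, 10, and median spans of 21930 and 25946 bp. The highest run of 10 genes on Z, from 68338561 to 68717888, had a median of 22.5 RPKM, which is the 93.1th percentile of autosomal runs. Its highest gene stood at 108 RPKM.

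**Figure D4:**
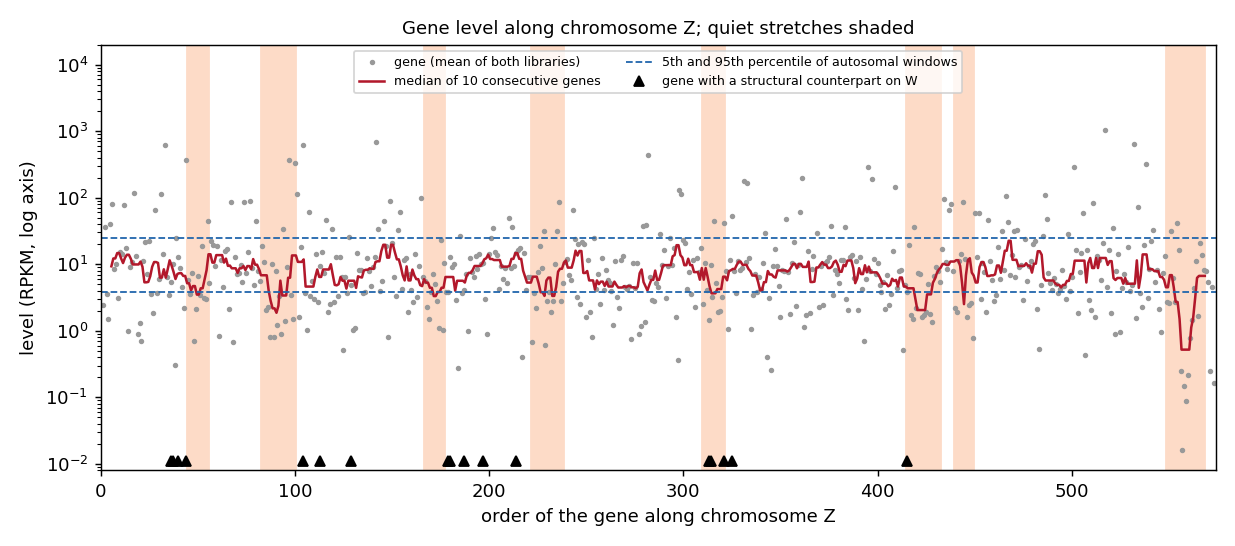
Level of each Z gene (grey points, RPKM on a log axis, mean of both libraries) in its order along the chromosome, with the median of 10 consecutive genes in red and the 8 quiet stretches shaded; dashed lines mark 3.80 and 24.6 RPKM, and triangles mark the 17 genes with a structural counterpart on W. The red line crosses the lower dashed line in each shaded stretch and never reaches the upper one; the gene with no reads is not drawn.

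Adjacent genes on Z had nearly uncorrelated levels. The rank correlation of level between adjacent genes was 0.00384 over 572 pairs. On the 8 autosomes over 30 Mb the same measure ran from 0.0208 on chromosome 2 to 0.209 on chromosome 8. Over the 29 autosomes with at least 100 genes it ran from -0.0523 to 0.222, and 5 of them were below Z. Adjacent genes share a library and depth, and these values are given as a description.

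Some Z genes had a counterpart of the same exon structure on W. Exon lengths between the first and the last exon were compared in transcript order, and a run of at least 4 consecutive identical lengths was required. Such a run with a W gene was found for 17 Z genes (2.97%) and for 10 of the 10552 autosomal genes (0.0948%). The 17 Z genes matched 16 of the 55 W genes, because 2 neighbouring Z genes, at 41017113 to 41089141 and at 41105006 to 41236365, matched the same one. In 10 pairs both genes had the same number of exons, and in 7 pairs every inner exon length agreed. In 2 of these 7 pairs the Z gene also shared all inner exon lengths with an autosomal gene. These are the Z genes at 10909101 to 10920339 and at 41105006 to 41236365. Sequence was not compared, so all 17 pairs are structural counterparts and not proven gametologs.

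The longest shared run had 36 exon lengths. It joined a Z gene with 47 exons at 13104764 to 13271973 to a W gene with 47 exons at 2559657 to 2760057. The Z gene had 4.88 RPKM in library A and 5.02 RPKM in library B, and the W gene 4.59 and 4.27 RPKM. A run of 22 joined a Z gene with 37 exons at 56828567 to 56883989 to a W gene with 36 exons at 8911645 to 9004680. Here the Z gene had 3.94 and 3.79 RPKM, and the W gene 1.97 and 1.87 RPKM. In the first pair Z and W were nearly level, and in the second W stood near 0.498 of Z.

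Runs of 12 lengths, covering all inner exons, joined 2 pairs. The Z gene at 3047079 to 3077626 had 13.4 RPKM in library A and 11.9 RPKM in library B, and its counterpart at 1686277 to 1738423 on W had 4.22 and 4.63 RPKM. The Z gene at 21293776 to 21409752 had 3.98 and 4.33 RPKM, and its counterpart at 10437474 to 10645637 had 1.62 and 1.93 RPKM. W was the lower member in both pairs and in both libraries.

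Runs of 11 and 10 lengths came next. The pair nearest to equality was the Z gene with 20 exons at 11477959 to 11528127, with 9.42 and 9.31 RPKM, and its counterpart at 3553465 to 3611651, with 9.27 and 9.25 RPKM. A Z gene with 16 exons at 43503468 to 43524279 had 52.4 RPKM in both libraries, and its counterpart at 9587391 to 9605635 had 23.7 and 23.0 RPKM. The abundant Z gene with 12 exons at 3440013 to 3447580, given above with 387 and 361 RPKM, matched a W gene at 2272243 to 2279728 with 175 and 168 RPKM. W was again the lower member, by less than 2% of the Z level in the first of these pairs.

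Runs of 9 lengths joined 2 pairs and runs of 7 lengths joined 3 pairs, which share the tenth place. The Z gene at 2683937 to 2731339 had 9.78 and 10.7 RPKM and its counterpart at 1181240 to 1241696 had 6.87 and 7.48 RPKM. The Z gene at 19587721 to 19608590 had 3.78 and 3.83 RPKM and its counterpart at 4892054 to 4919548 had 2.61 and 2.71 RPKM. The Z gene at 10909101 to 10920339, number 5 in level on Z, had 615 and 622 RPKM and its counterpart at 3176560 to 3189868 had 145 and 153 RPKM. Next, the Z gene at 19622883 to 19657655 had 12.7 and 12.8 RPKM and its counterpart at 4748295 to 4805997 had 3.96 and 4.16 RPKM. Last, the Z gene at 25059294 to 25100793 had 14.5 and 14.7 RPKM and its counterpart at 7440658 to 7515530 had 1.94 and 1.91 RPKM, the lowest ratio of RPKM among all pairs. In these 5 pairs too W was the lower member in both libraries.

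Across the 17 pairs the W gene was lower than the Z gene in 16, in either library. The ratio of W to Z had a median of 0.408 in A and 0.439 in B. Averaged over both libraries it ran from 0.132 to 1.53, and it was under 0.5 in 12 pairs. The exception was the shorter of the 2 Z genes that matched the same W gene, with 27 reads in A and 92 in B. Annotated exon sequence differed within pairs, and the ratios are per kilobase of it. In the pair of lowest ratio Z had 4343 bp and W 7059 bp, with 1260 and 273 reads in library A. The Z gene at 41105006 to 41236365 had 6194 bp and its counterpart 2943 bp, with 1176 and 121 reads in library A. By reads alone the latter pair was the lower, and ratios of reads were not summarised. The share of female RNA is not known, and the W gene is absent from male RNA, so the ratios do not compare gene copies. Multi-mapping reads were left out by the counting, so reads shared by both copies are missing from both counts, and their number was not tested.

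No counterpart was found near the far end of Z. The last was the Z gene ending at 56883989. Beyond it start 158 Z genes, 111 of them with the 6 exons needed. That none of these had a counterpart follows from setting the bound at the last one found. Of the pairs, 7 lay under 15 Mb on Z, from 2383636 to 13271973, and matched W between 865167 and 3611651. The other 10 lay from 19587721 to 56883989 and matched W between 4748295 and 12726129. The 2 sets did not overlap on either chromosome, a split chosen after the positions were seen. Median ratios of W to Z were 0.459 in the first set and 0.373 in the second, with ranges of 0.240 to 0.988 and 0.132 to 1.53. These ranges overlap over most of their length.

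The W members of the pairs held most of the W reads. None of the 17 Z members stood under 1 RPKM, where 6.98% of all Z genes (40) did. With so small a share, 17 genes are too few for this to set them apart. The median of the Z members was 10.3 RPKM, with a range of 1.43 to 619 RPKM, against 7.27 RPKM for the 404 other Z genes of at least 6 exons. They held 7.29% of the Z reads in library A and 7.30% of those in library B. The 16 W genes held 76.2% of the W reads in A and 76.9% in B. Their median was 4.24 RPKM, against 0.811 RPKM for the other 39 W genes. A match needs at least 6 exons, and this bound was not applied to the 39. Their median was 4 exons, against 12 for the matched W genes, so the groups differ in structure by rule. The matched genes with the most reads held 6725 and 3447 of the 24198 W reads in library A. The span from first to last exon was smaller on Z than on W in 14 of the 17 pairs, with a median Z to W ratio of 0.759.

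**Figure D5:**
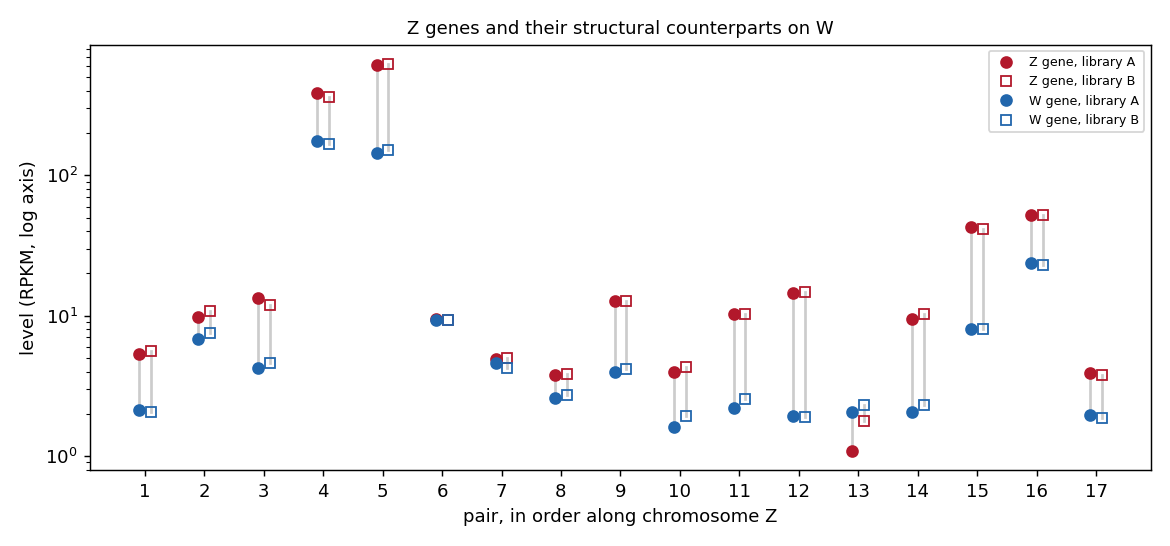
Level in RPKM (log axis) of the 17 Z genes with a structural counterpart on W (red) and of these W genes (blue), in library A (filled circles) and library B (open squares), in order along Z. The W gene is lower in 16 pairs, and in the pair numbered 13 on the axis it is higher.

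Library A and library B gave nearly the same values for Z genes, as they did for the table. The rank correlation of level between the libraries was 0.996 over Z genes. The labels list different organs for A and B, and whether the libraries hold separate material was not tested. Their likeness is therefore a description and no independent check of a value. Ratios were taken for the 566 Z genes with 10 or more reads in a library. Of these, 4 (0.707%) were at least 2-fold apart, against 0.755% of all 11256 genes tested. Of these 4 genes 2 were higher in library B (0.489% of all genes were) and 2 in library A (0.267% of all genes were). At 1.5-fold the count was 14 (2.47%, against 2.43% of all genes), and at 4-fold it was 1 (0.177%, against 0.133%). None of the 4 had 100 reads in either library. The gene with 10 exons at 38401018 to 38564922 had 4 reads in A and 42 in B, and the one with 24 exons at 46608740 to 46828779 had 12 and 63. In the other direction, the gene with 23 exons at 85714965 to 85759266 had 47 and 29 reads, and the one with 3 exons at 25488523 to 25494590 had 14 and 10. The share of Z genes was close to that of all genes, and it does not set Z apart.

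Where the higher library held 100 reads or more, Z ratios stayed below 2-fold. Apl_ZG0008380, with 2 exons at 85596882 to 85597802, had 144 reads in A and 165 in B, that is 7.21 and 3.93 CPM. It was 1.83-fold higher in library A, with an exact conditional binomial 95% interval of 1.32 to 2.56 from read pairs. Apl_ZG0000770, with 12 exons at 8997244 to 9022439, had 87 and 113 reads and was 1.62-fold higher in library A (1.06 to 2.44). Both had fewer than 200 reads in each library.

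In the other direction Apl_ZG0002360, with 11 exons at 19191660 to 19240987, had 44 reads in A and 153 in B and was 1.66-fold higher in library B (1.01 to 2.78). Apl_ZG0001120, with 11 exons at 10711826 to 10721825, had 43 and 143 reads and a ratio of 1.58 (0.978 to 2.76). Both reached 100 reads only in the deeper library B, where they were also the higher. These 2 genes are also the lowest of their quiet stretches. All 4 genes were chosen for the size of their ratios and have no replicate, so their intervals describe counting error and test nothing.

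The balance of the libraries on Z was shifted by a very small amount. The median log2 ratio (library B over A) was -0.016 over the 566 Z genes and -0.00097 over 10443 autosomal genes. The ratio was above equality for 238 of the 566 Z genes and for 5186 of the autosomal genes. The spread around it, as a scaled median absolute deviation, was 0.10 on Z and 0.11 on the autosomes. On the 8 autosomes over 30 Mb the median ran from -0.0163 on chromosome 3 to -0.0074 on chromosome 4, and 1 of these 8 was below Z. The value of Z depended on the scaling, from -0.0063 with total counts to -0.016 with TMM, and its sign held under each of the 4 scalings tried.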

How the data were processed

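The deposited values are raw counts. Per the file headers, the authors made them with featureCounts 2.1.1 in paired-end mode, over the exons of their own annotation. Its command line sets no strand, fragment or multi-mapping option, so mates were counted separately and reads of several places were left out. HISAT2 and SAMtools appear without versions in the submitters' processing notes, and the name of the build is "not given in the sources used here". The alignment names in the headers differ from the labels' library names, and files were assigned to labels as deposited.

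The table holds 573 Z genes of 11383. Counts were scaled with TMM factors (0.997 and 1.003) of edgeR 4.0.16 in R 4.3.3 and divided by exon length. Python 3.11.15 with scipy 1.17.1 served the rest. Gene start was the smallest and gene end the largest exon coordinate, 1-based, and chromosome size the end of its last gene. Ratios of the libraries were taken for genes with at least 10 reads in 1 library. Log2 ratios used a prior count of 2, and the fold values of named genes are ratios of CPM without it. Intervals from read pairs used halved counts. Functions were tested on simulated data. Genes were named by rules: IDs for the 2 highest genes and 2 ratios in each direction, positions for the 10 highest, genes without reads, the 3 longest, extremes of stretches and the 10 longest W matches, to which 2 ties were added later. Other positions were chosen after their values were seen. Members, lists and rules were chosen with earlier results of these data known. Alternatives covered scaling, each library alone, filters, comparison autosomes, window size and bounds.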

Additional observations from a re-analysis of the deposited data

How the results depend on the processing

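Of 72 alternatives over 13 results, 52 gave about the same value, 20 a different one and 0 the opposite direction. Where a result had a 95% interval, about the same meant inside it. For medians and percents of genes that interval was taken over genes, which are not replicates. Counts had no interval. The 17 Z genes with a counterpart on W became 23 with runs of at least 3 and 13 with runs of at least 6. The 4 Z genes at least 2-fold apart became 6 with the reads of library B thinned. These were all labelled about the same. The Z to autosome ratio of median level stayed between 0.737 and 0.830 under all its alternatives. The share of Z reads was 3.80% and 3.74% without the 10 most abundant genes and 3.20% and 3.17% with autosomes and Z only, where the smaller total raises it. The median log2 ratio (library B over A) was -0.0063 with total counts and -0.0096 with the upper quartile, because 1 factor shifts all genes. The number of Z genes at least 2-fold apart, 4, became 14 at 1.5-fold, 1 at 4-fold, 0 with at least 100 reads and 0 by the nearer bound of the interval in read pairs; 1.5-fold was passed by 2.43% of all genes and 4-fold by 0.133%. Under 0.5 RPKM stood 2.62% of Z genes and under 2 RPKM 15.5%; at least 30 RPKM was reached by 13.96% and 100 RPKM by 4.19%, all by construction. Quiet stretches rose from 8 to 14 at the 10th percentile. Abundant stretches numbered 4 with runs of 5 genes, 1 at the 90th percentile and 1 against autosomes over 30 Mb. The ratio of gene span was 1.13 against autosomes over 30 Mb and 1.33 against those of at least 10 Mb. No paired analysis was possible because there is a single library per label, and leaving out a replicate was not possible either. Depth limits the lowest genes, since 31 Z genes had 1 to 49 reads in library A and 16 did in the deeper library B.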

Other observations

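Genes on Z that share every inner exon length with another gene in the table, with at least 2 inner exons, numbered 40 (6.98%), against 3.70% of autosomal genes. With at least 4 inner exons the shares were 3.49% and 2.27%. Leaving W partners aside, the share of Z was 5.93% with at least 2 inner exons and 2.62% with at least 4. Of the 40 genes 12 had their partner on Z, and these formed 6 pairs. Sequence was not compared.

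The highest of these pairs is that of genes with 4 exons at 10844633 and 10864900, 20.3 kb apart on the plus strand. They had 4839 and 4870 reads in library A and 9992 and 9958 in library B. The gene next to the first, at 10848523 to 10850271, stood at 3.45 RPKM, and its inner exon lengths matched an autosomal gene instead. Genes with 5 exons at 16105796 and 16119247, 13.5 kb apart, were also alike in level, with 11.2 and 11.8 RPKM in library A and 11.5 and 12.7 RPKM in library B. The pair at 18729953 and 18743422, likewise 13.5 kb apart, had 1.45 and 3.83 RPKM in library A.

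Near the end of Z 2 pairs were interleaved at nearly one distance. Genes with 9 exons at 84868995 and 84947693 lay 78.7 kb apart, and genes with 5 exons at 84938607 and 85017207 lay 78.6 kb apart, all on the minus strand. The first pair had 6 and 3 reads in library A and 5 and 4 in library B. The second had 0 and 5 in library A and 1 and 3 in library B. Multi-mapping reads are missing from the counts, and whether that bears on these low counts was not tested.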
